A study of Oryza sativa with 12 samples.

Results

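The 7 rice genes described here encode protein disulfide isomerases (PDI). They were picked by locus identifier, each locus was kept only if the annotation of the deposited table names it a protein disulfide isomerase, and all 7 of the 7 listed loci were kept, out of 50708 loci in the table. Each of them fills exactly 1 entry of the table, and all 7 passed the filter on low counts that left 33281 loci for testing. They are PDIL1-1, PDIL1-3 and PDIL1-4, PDIL2-1, PDIL2-2 and PDIL2-3, and PDIL5-3, where PDIL stands for PDI-like. A wider search found 15 loci whose annotation names a disulfide isomerase: these 7, the other 5 rice PDIL genes, and 3 further loci.

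RNA depleted of ribosomal RNA was sequenced from a pair of near-isogenic rice lines, lines bred to share most of their genome, at the stage when grains fill. One is labelled heat-sensitive (XN0437S) and the other heat-tolerant (XN0437T), and each has libraries from control plants and from plants under high night temperature stress. The 4 groups of line and treatment have 3 libraries each, 12 in all. The sources used here do not give the temperature, how long the stress lasted, the age of the plants or the organ. Whether the 3 libraries of a group came from separate plants is not stated either, and the p-values cover the spread between libraries, technical spread included.

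Protein disulfide isomerases are enzymes of the endoplasmic reticulum (ER) with thioredoxin-like domains. They form disulfide bonds between cysteines of newly made secretory proteins and rearrange bonds that formed wrongly, and several also act as chaperones. In filling rice grains the endosperm sends large amounts of storage protein through the ER, and glutelins, globulin and cysteine-rich prolamins carry disulfide bonds. PDIL1-1 is the gene of the rice mutant esp2, in which glutelin precursors stay in the ER. PDIL2-3 belongs to the P5 (PDIA6) type and has been linked in rice endosperm to the cysteine-rich prolamins of ER-derived protein bodies. When unfolded protein builds up in the ER, a signalling pathway through IRE1 and membrane-bound bZIP factors raises transcripts of folding helpers, certain PDI genes among them.

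The libraries held 85496090 to 100353570 counts in total, with 31536 to 33624 loci detected in each. Of the low counts (1 to 20), 37.6% to 40.8% were multiples of 4, so 1 fragment may stand for several counts. TMM normalization factors, which align the bulk of the genes between libraries, ran between 0.838 and 0.981 for control libraries and between 1.11 and 1.18 for stress libraries. Markers of endosperm (5 genes), embryo (2) and green tissue (4) were all detected in every library. Summed endosperm markers lay at 37093 to 41031 CPM (counts scaled to library size with the TMM factors) in the control libraries of both lines, at 16500 to 16862 CPM in sensitive stress and at 19274 to 19760 CPM in tolerant stress. Between the lines under stress 1 of these 5 genes was higher in the tolerant line, GluA1 (15119 against 11469 CPM), while Wx (-0.33, edgeR adjusted p = 0.000437) and NAC26 (-0.15, edgeR adjusted p = 0.0448) were lower. Summed embryo markers lay at 3340 to 3694 CPM in control, 2213 to 2394 CPM in sensitive stress and 1782 to 1867 CPM in tolerant stress. Summed green tissue markers lay at 421 to 522 CPM in control and 333 to 369 CPM under stress, but the 4 genes did not move together. RCA fell, from 262 to 174 CPM in the sensitive and from 334 to 158 CPM in the tolerant line, and RBCS3 fell in the sensitive line (-0.54, edgeR adjusted p = 0.0296), while RBCS2 rose in the sensitive line (0.48, edgeR adjusted p = 0.00138) and CAB1R in the tolerant line (0.47, edgeR adjusted p = 9.48e-05). RBCS2 and CAB1R rose in both lines with library totals alone, and there the fall of RCA was called in the tolerant line but not in the sensitive line. The part of tissue make-up in the results was not tested, and in bulk RNA fewer cells of a type and less RNA per cell cannot be told apart.

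PDI transcript per unit of length came mostly from 1 gene. PDIL1-1 (LOC_Os11g09280, chromosome 11, 4971248 to 4975064, minus strand) stood first of 12 PDIL genes in every group by deposited FPKM, fragments per kilobase scaled to library size. Its FPKM was 136.1 ± 1.61 in sensitive control, 170.1 ± 5.70 in sensitive stress, 129 ± 4.08 in tolerant control and 190.3 ± 2.81 in tolerant stress (mean ± SD, n = 3 here and below). PDIL1-4 (LOC_Os02g01010, chromosome 2, 3514 to 8377, minus strand) stood second in control, at 34.5 ± 3.41 FPKM in the sensitive and 28.2 ± 2.28 FPKM in the tolerant line. PDIL2-3 (LOC_Os09g27830, chromosome 9, 16930987 to 16935970, plus strand) came next in control, at 14.3 ± 0.566 and 11.01 ± 0.574 FPKM.

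Under stress PDIL2-3 and PDIL1-4 traded places in both lines. PDIL2-3 reached 44.3 ± 3.29 FPKM in the sensitive and 68.1 ± 2.46 FPKM in the tolerant line, while PDIL1-4 lay at 26.05 ± 1.57 and 28.05 ± 1.59 FPKM. These first 3 places did not overlap with their neighbours in any group.

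Below them the order was less firm. In control PDIL2-1 (LOC_Os05g06430, chromosome 5, 3294696 to 3298055, minus strand) lay at 7.15 ± 0.158 and 6.69 ± 0.506 FPKM and overlapped with PDIL5-2. PDIL2-2 (LOC_Os01g23740, chromosome 1, 13353629 to 13357510, plus strand) lay at 4.56 ± 0.360 and 4.15 ± 0.547 FPKM. PDIL5-3 (LOC_Os02g34530, chromosome 2, 20700314 to 20702948, plus strand) lay at 1.46 to 1.88 FPKM as group means. PDIL1-3 (LOC_Os02g34940, chromosome 2, 20957207 to 20961957, minus strand) was last or next to last in every group, with group means from 0.0149 to 0.289 FPKM. No other entry of the table overlapped the coordinates of any of the 7 genes. The processing notes name no rice genome build, while the identifier of LOC_Os07g28100 in the deposited table ends in MSUv7.0. Coordinates are printed as that table has them.

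**Figure D1:**
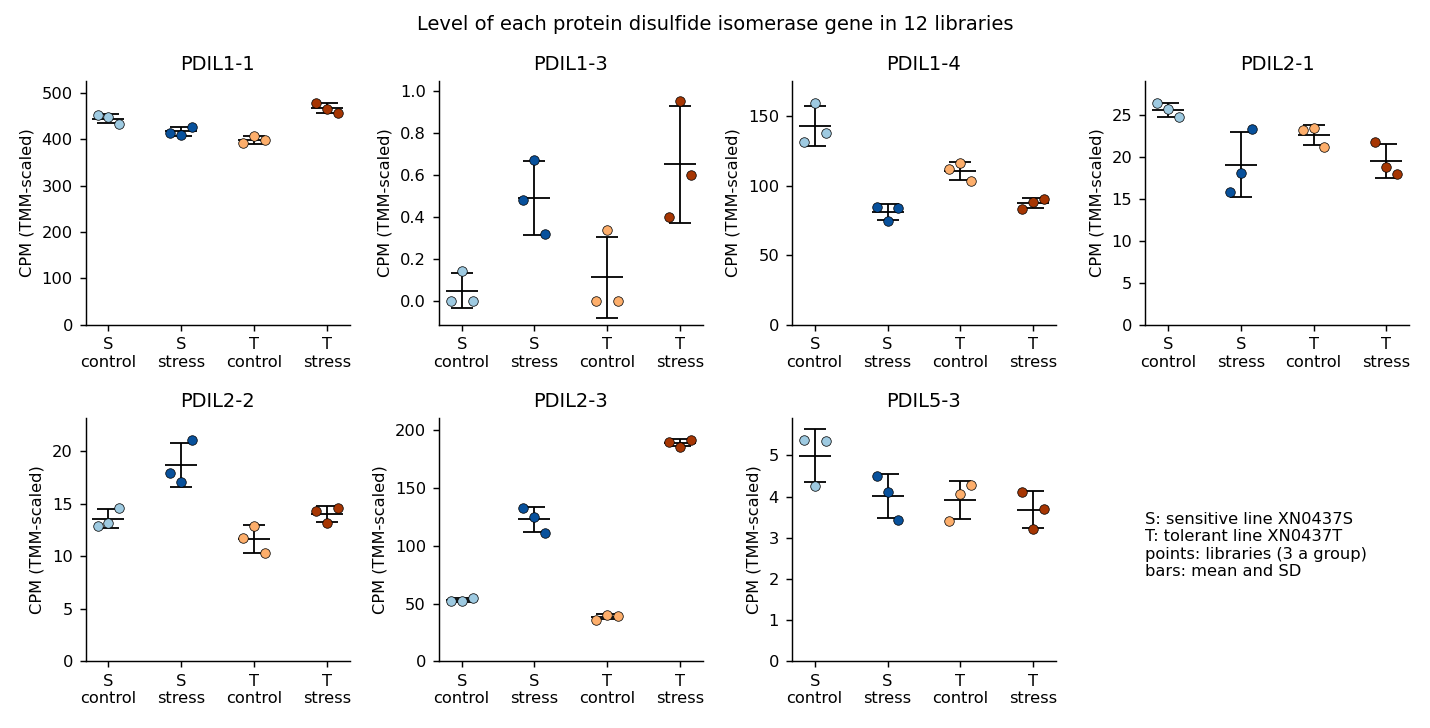
Level of each of the 7 genes as CPM (linear axis, a separate scale for each gene) in the 12 libraries. Points are libraries, the long tick is the mean of 3 and the bar is the SD; S is the sensitive and T the tolerant line. PDIL2-3 rises from 53.05 to 123 CPM in S and from 38.5 to 189 CPM in T, and its 4 groups do not overlap.

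The first question was which PDI genes responded to night heat in the sensitive line. PDIL2-3 and PDIL2-2 rose, PDIL1-4 and PDIL2-1 fell, and PDIL1-1, PDIL1-3 and PDIL5-3 did not pass the test. That is 4 of 7 genes called, against 32.1% of all tested loci, with 2 rising (16.3% of all loci) and 2 falling (15.9%). Here and below, such shares are description only, since the 7 genes and the gene lists were chosen with earlier results of these data known. Calls are at an adjusted p under 0.05 in edgeR's quasi-likelihood test with Benjamini-Hochberg adjustment over all 33281 loci. Log2 fold changes are given with standard errors. These were computed back from the log2 fold change and the F statistic of the test, and are approximate at low counts.

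PDIL2-3 had 51.8, 52.6 and 54.7 CPM in the sensitive control libraries and 133, 125 and 111 CPM in the stress libraries. Every stress library lay far above every control library. The log2 fold change was 1.21 ± 0.07, or 2.32-fold (edgeR adjusted p = 5.94e-08).

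PDIL2-2, of the same P5 class in the table's orthology annotation, had 12.9, 13.2 and 14.6 CPM in control and 17.9, 17.1 and 21.05 CPM under stress. The groups did not overlap, and the log2 fold change was 0.46 ± 0.11 (edgeR adjusted p = 0.00668). PDIL2-1, the other gene of the class, went the other way. It had 26.4, 25.7 and 24.7 CPM in control and 15.8, 18.1 and 23.3 CPM under stress, with the highest stress library just under the lowest control library. Its log2 fold change was -0.42 ± 0.13 (edgeR adjusted p = 0.0231). This call was lost without sensitive control 1 (-0.40), sensitive control 2 (-0.42), sensitive stress 1 (-0.30) or sensitive stress 2 (-0.39), with edgeR adjusted p up to 0.0937. PDIL2-1 had -0.01 with library totals alone (edgeR adjusted p = 0.963) and -0.02 with limma on log2(FPKM + 1) (adjusted p = 0.901), neither called. Relative to the median of all tested loci it was -0.47 with TMM and with library totals alone, and -0.22 with FPKM + 1. TMM and library totals differ by 1 factor per library. Here and below, values relative to the median therefore nearly agree between them by construction, and their agreement is no separate support. PDIL2-2 had 0.88 with library totals alone and 0.75 with FPKM + 1 and kept its call.

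PDIL1-4, of the classical PDI class, had 132, 159.5 and 138 CPM in control and 84.7, 74.6 and 84.4 CPM under stress. All 3 stress libraries lay well under the controls. The log2 fold change was -0.82 ± 0.08, a 1.76-fold fall (edgeR adjusted p = 8.10e-06). It was smaller but called with library totals alone (-0.40) and with FPKM + 1 (-0.39).

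PDIL1-1 had 453, 448 and 433 CPM in control and 414, 409 and 427 CPM under stress. The groups lay close together without overlap, at a log2 fold change of -0.09 ± 0.04 that did not pass (edgeR adjusted p = 0.0978). The sign of this value depends on the scaling. With library totals alone the median of all tested loci moved from 0.04 to 0.46 and PDIL1-1 to 0.32, which is called (edgeR adjusted p = 0.00161), while relative to that median it was -0.13 under both scalings. With FPKM + 1 it was again 0.32 and called (limma adjusted p = 6.61e-05). The median of all loci was 0.20 there, and PDIL1-1 lay 0.12 above it. The pseudocount pulls log2 fold changes of loci with low FPKM toward 0. The median with FPKM + 1 is therefore not comparable with the others, and a place above or below it does not rank a gene against the bulk, for any gene given here. Between these 2 settings the sign relative to the median changed with the median, not with the value of PDIL1-1.

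PDIL5-3, one of the PDI-like genes of the fifth class, had 5.37, 4.25 and 5.34 CPM in control and 4.49, 4.11 and 3.44 CPM under stress, and the groups overlapped. Its log2 fold change was -0.32 ± 0.17 (edgeR adjusted p = 0.186).

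PDIL1-3 was near the limit of detection in control. Its counts were 0, 11 and 0 in sensitive control and 49, 72 and 34 in sensitive stress. In the tolerant line they were 0, 29 and 0 in control and 42, 99 and 64 under stress. Every stress library of a line lay above all of its control libraries. The fitted log2 fold changes, which depend on the prior count at such levels, were 3.32 ± 1.66 in the sensitive line (edgeR adjusted p = 0.155) and 2.52 ± 1.56 in the tolerant line (edgeR adjusted p = 0.25). Neither passed, and both calls depend on the setting. Both lines were called with limma on log2(FPKM + 1), at 0.26 (adjusted p = 0.0282) and 0.31 (adjusted p = 0.0123). With 1 library left out the calls also moved: without sensitive control 2 the sensitive line was called (adjusted p = 0.0382 in edgeR), and without tolerant control 2 the tolerant line was called (adjusted p = 0.0145 in edgeR). A floor of 12 counts, taken as 3 fragments, equals 0.112 to 0.157 CPM per library, counting error only, and sensitive control lay at or under it in every library.

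The second question was the same response in the tolerant line. PDIL2-3 and PDIL1-1 rose and PDIL1-4 fell, 3 of 7 genes, against 33.2% of all tested loci (2 rising against 16.7%, 1 falling against 16.6%). PDIL2-3 had 36.1, 40.01 and 39.4 CPM in tolerant control and 189.6, 186 and 192 CPM under stress. Its 3 stress libraries lay close together and far above the controls. The log2 fold change was 2.29 ± 0.07, or 4.91-fold (edgeR adjusted p = 2.06e-10).

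PDIL1-1, the esp2 gene, had 391, 407 and 398 CPM in tolerant control and 478, 466 and 456 CPM under stress. The groups did not overlap. The rise was small but exceeded the spread between libraries, at a log2 fold change of 0.23 ± 0.04, or 1.17-fold (edgeR adjusted p = 0.000733). PDIL1-1 had 0.54 with library totals alone and 0.56 with FPKM + 1, both called.

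PDIL1-4 had 112, 116 and 103 CPM in control and 83.4, 88.5 and 90.3 CPM under stress, again without overlap. Its log2 fold change was -0.34 ± 0.08 (edgeR adjusted p = 0.00616). With library totals alone the median of all loci in this line moved from 0.05 to 0.37, and PDIL1-4 was -0.03 and no longer called (edgeR adjusted p = 0.872). Relative to the median of all loci PDIL1-4 was -0.39 under both scalings, which agree by construction, and -0.17 with FPKM + 1. Its own value of -0.007 with FPKM + 1 was not called either.

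Apart from PDIL1-3, given above, the remaining genes did not pass in the tolerant line. PDIL2-2 had 11.7, 12.9 and 10.3 CPM in control and 14.3, 13.1 and 14.6 CPM under stress, a log2 fold change of 0.27 ± 0.11 (edgeR adjusted p = 0.0879). The groups were apart by a narrow gap. PDIL2-2 was called with library totals alone (0.58, edgeR adjusted p = 0.00297) and with FPKM + 1 (0.50, limma adjusted p = 0.00201). PDIL2-1 had 23.1, 23.4 and 21.2 CPM in control and 21.8, 18.7 and 17.98 CPM under stress, with overlap, at -0.21 ± 0.13 (edgeR adjusted p = 0.241). It turned to 0.10 with library totals alone and with FPKM + 1, not called either. Relative to the median of all loci it was -0.26 under both scalings and -0.06 with FPKM + 1. PDIL5-3 had 3.41, 4.07 and 4.28 CPM in control and 4.12, 3.22 and 3.71 CPM under stress, with full overlap, at -0.09 ± 0.17 (edgeR adjusted p = 0.738).

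**Figure D2:**
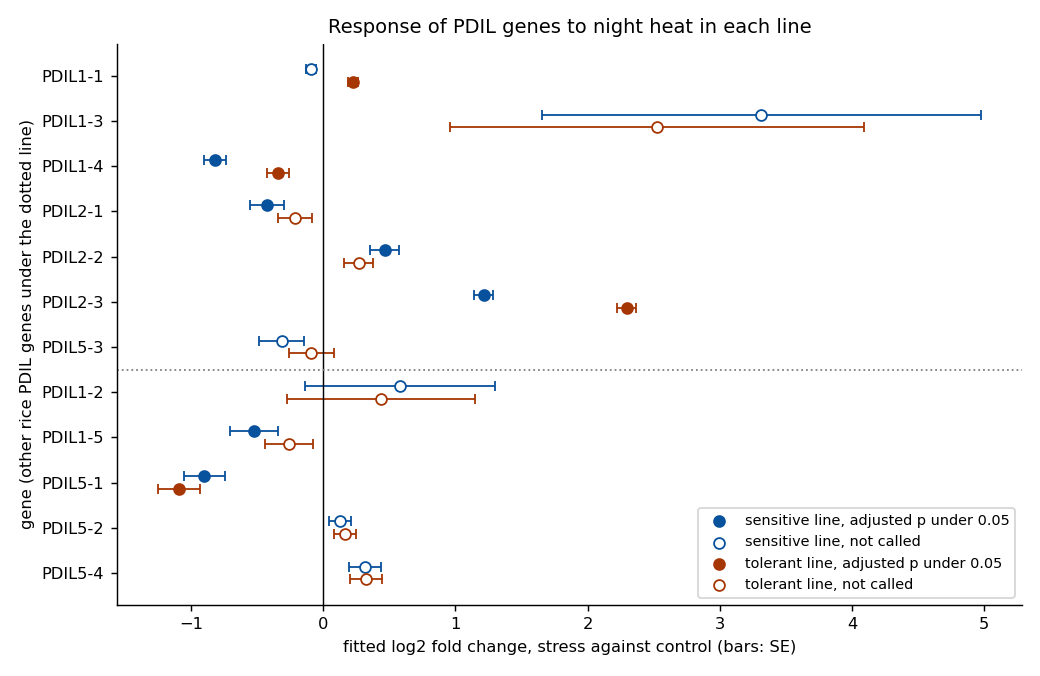
Fitted log2 fold change of stress against control for 12 PDIL genes, with the 7 genes above the dotted line and the other 5 below it. Blue is the sensitive and brown the tolerant line, bars are standard errors and filled points have an adjusted p under 0.05. PDIL2-3 lies at 1.21 and 2.29, PDIL1-4 at -0.82 and -0.34, and PDIL1-1 on either side of 0; PDIL1-3 has the widest bars.

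The last question on the response was whether the lines differed in their response, which the interaction of line and treatment tests directly. PDIL2-3, PDIL1-4 and PDIL1-1 differed, 3 of 7 genes, against 2.61% of all tested loci, and for all 3 the value was higher in the tolerant line (1.27% of all loci) and for none lower (1.34%; edgeR, and 0 lower also at an unadjusted p under 0.05 and with DESeq2). The response of PDIL2-3 was greater in the tolerant line by a log2 difference of 1.08 ± 0.10 (edgeR adjusted p = 8.85e-05), or 2.12-fold. For PDIL1-1 the difference was 0.32 ± 0.06 (edgeR adjusted p = 0.00909). It was 0.22 and not called with library totals alone (edgeR adjusted p = 0.296), and 0.33 relative to the median of all loci under both scalings (0.27 with FPKM + 1). The agreement of the 2 scalings is by construction and does not restore the call.

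For PDIL1-4 the difference was 0.48 ± 0.12, the fall being smaller in the tolerant line, at an adjusted p of 0.0496 in edgeR. That call sat at the threshold. It was lost when any 1 of 11 of the 12 libraries was left out, sensitive control 1 being the exception, with values from 0.39 to 0.53 and edgeR adjusted p from 0.0373 to 0.115, and with library totals alone (0.38, edgeR adjusted p = 0.261). Over all 21 alternatives it was lost in 17. For the remaining genes the interaction did not pass: PDIL2-1 had 0.21 ± 0.18, PDIL2-2 -0.20 ± 0.16, PDIL5-3 0.23 ± 0.24 and PDIL1-3 -0.79 ± 2.14. With such errors, differences of this size in PDIL2-1, PDIL2-2 and PDIL5-3 were not detectable here.

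The lines were also compared within each treatment. These comparisons share their libraries with the responses above and are given as separate values. In control PDIL1-1, PDIL1-4 and PDIL2-3 were lower in the tolerant line, 3 of 7 genes, against 5.42% of all tested loci (2.89% lower), and none was higher (2.53%; edgeR, and 0 higher also at an unadjusted p under 0.05 and with DESeq2). PDIL2-3 had 38.5 ± 2.09 CPM in the tolerant and 53.05 ± 1.47 CPM in the sensitive line, a log2 difference of -0.46 ± 0.07 (edgeR adjusted p = 0.00209). PDIL1-4 had 111 ± 6.60 CPM against 143 ± 14.4 CPM, at -0.37 ± 0.08 (edgeR adjusted p = 0.0198), and the call was lost without sensitive control 2 (-0.29), tolerant control 1 (-0.36) or tolerant control 3 (-0.33), with adjusted p up to 0.0741 in edgeR. PDIL1-1 had 399 ± 7.87 CPM against 445 ± 10.3 CPM, at -0.16 ± 0.04 (edgeR adjusted p = 0.0401), and the call was lost without any 1 of 11 of the 12 libraries, sensitive stress 3 being the exception, with values from -0.18 to -0.12 and edgeR adjusted p from 0.0489 to 0.203. PDIL1-1 had -0.05 and PDIL1-4 had -0.26 with library totals alone, neither of them called (edgeR adjusted p = 0.784 and 0.188).

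Under stress PDIL2-3 and PDIL1-1 were higher in the tolerant line, 2 of 7 genes, against 3.4% of all tested loci (1.71% higher), and none was lower (1.69%). PDIL2-3 had 189 ± 3.07 CPM in the tolerant and 123 ± 10.8 CPM in the sensitive line, a log2 difference of 0.62 ± 0.07 (edgeR adjusted p = 0.000312). The order of the lines was thus opposite to that in control. PDIL1-1 had 467 ± 10.9 CPM against 417 ± 9.26 CPM, at 0.16 ± 0.04 (edgeR adjusted p = 0.0461), and this call was lost without any 1 of the 12 libraries, with values from 0.15 to 0.18 and edgeR adjusted p from 0.0541 to 0.183. PDIL2-2 had 14.01 ± 0.770 CPM against 18.7 ± 2.09 CPM without overlap, at -0.42 ± 0.11, and did not pass (edgeR adjusted p = 0.0693); it was the 1 gene lower at an unadjusted p under 0.05, and DESeq2 called it (-0.40, adjusted p = 0.0183).

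Shares within a library do not depend on how libraries are scaled to each other. Of the summed FPKM of the 12 PDIL genes, PDIL2-3 held 6.27%, 6.25% and 6.76% in the sensitive control libraries and 16.7%, 15.96% and 13.8% under stress. In the tolerant line it held 5.18%, 5.42% and 5.61% in control and 20.5%, 20.6% and 21.3% under stress. The lowest share under stress in either line was above the highest in control, and all tolerant stress libraries were above all sensitive ones.

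The share of PDIL1-1 was 60.96 ± 0.902% in sensitive control and 59.3 ± 0.534% in sensitive stress, and 63.4 ± 0.880% in tolerant control and 58.1 ± 0.654% in tolerant stress. That of PDIL1-4 was 15.4 ± 1.34% and 9.08 ± 0.537% in the sensitive line, and 13.8 ± 0.625% and 8.56 ± 0.481% in the tolerant line. As a percent of PDIL1-1, PDIL2-3 stood at 10.5 ± 0.543% in sensitive control and 26.1 ± 2.75% in sensitive stress, and at 8.52 ± 0.325% in tolerant control and 35.8 ± 1.16% in tolerant stress. The FPKM ratio of PDIL2-3 to PDIL1-4 was 0.418 ± 0.0417 and 1.71 ± 0.205 in the sensitive line, and 0.392 ± 0.0332 and 2.43 ± 0.107 in the tolerant line. The control ranges of the lines overlapped in this ratio and the stress ranges did not.

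**Figure D3:**
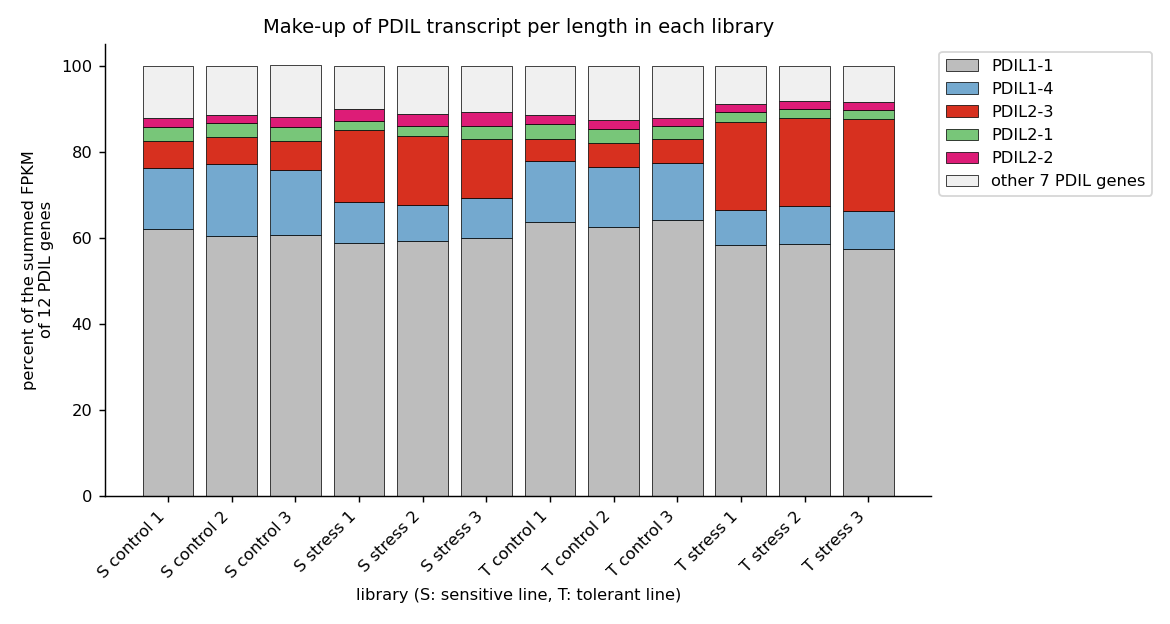
Percent of the summed FPKM of 12 PDIL genes held by each gene, 1 bar per library; each bar adds up to the whole. The PDIL1-1 block is the largest in all 12 bars, and the PDIL2-3 block widens from 5.18% to 6.76% in control to 13.8% to 21.3% under stress.

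Of the other 5 PDIL genes, 2 fell and 0 rose in the sensitive line, and 1 fell and 0 rose in the tolerant line, against 15.9% and 16.6% of all tested loci falling and 16.3% and 16.7% rising (edgeR; 1 rose in each line at an unadjusted p under 0.05 and with DESeq2, and 2 rose in each line with library totals alone). PDIL5-1, whose counterpart in barley is a host factor for certain plant viruses, fell in both, from 19.7 ± 2.76 to 10.6 ± 1.03 CPM in the sensitive line (log2 fold change -0.90 ± 0.16, edgeR adjusted p = 0.000729) and from 15.8 ± 1.63 to 7.43 ± 1.503 CPM in the tolerant line (-1.09 ± 0.16, edgeR adjusted p = 0.000149). PDIL1-5 fell in the sensitive line (-0.52 ± 0.18, edgeR adjusted p = 0.0424), a call lost without any 1 of 8 of the 12 libraries, all 6 of that line among them (adjusted p up to 0.143 in edgeR), and had -0.26 ± 0.18 in the tolerant line, which did not pass. PDIL5-4 had 0.32 in both lines without passing (edgeR adjusted p = 0.061 and 0.0561), and PDIL5-2 and PDIL1-2 did not pass either; with library totals alone PDIL5-4 had 0.73 and 0.64 and PDIL5-2 had 0.54 and 0.48, all called. PDIL5-4 was also called in both lines without sensitive control 2, and in the tolerant line without sensitive control 3 or tolerant control 2. For the interaction, 0 of the 5 passed in edgeR, against 2.61% of all tested loci. Also 0 had an unadjusted p under 0.05 and 0 passed with DESeq2. Of the 3 further loci, LOC_Os04g43420, annotated in the table as a chloroplast protein, fell in the sensitive line (-0.96 ± 0.30, edgeR adjusted p = 0.0255; lost without sensitive control 1 or 2 or sensitive stress 1 or 3, adjusted p up to 0.0906 in edgeR, and with library totals alone), LOC_Os11g11440 did not pass in either line (in the sensitive line it did without tolerant control 1, edgeR adjusted p = 0.0388), and LOC_Os07g28100 had no count in any library.

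PDI enzymes work beside other ER proteins, listed here as ER folding partners. Of 12 listed, 11 were tested, and 10 rose and 0 fell in each line in edgeR. Of all tested loci 16.3% and 16.7% rose in the sensitive and tolerant line, and 15.9% and 16.6% fell. CRT3 did not pass, and 0 fell also at an unadjusted p under 0.05, with DESeq2 and with library totals alone. In the tolerant line the call of BiP5 was lost without tolerant control 1 or 2 or tolerant stress 1 or 3 (edgeR adjusted p up to 0.0639), which leaves 9. The median log2 fold change was 1.31 in the sensitive and 1.87 in the tolerant line, beside 0.04 and 0.05 over all tested loci. BiP2, BiP4, BiP5 and CRT2 enter these medians with control group means of only 0.00874 to 0.656 CPM, so their fold changes rest on low counts. BiP1, the main Hsp70 of the ER, rose by 0.95 ± 0.03 and 1.60 ± 0.03. GRP94, the ER Hsp90, rose by 1.75 ± 0.09 and 2.44 ± 0.09. The lectin chaperone CRT1 (calreticulin) rose by 1.31 ± 0.08 and 1.69 ± 0.08, and SDF2, which in Arabidopsis works in a complex of the ER lumen, by 0.93 ± 0.09 and 1.71 ± 0.09. The response was greater in the tolerant line for 3 of the 11 genes: BiP1 (difference 0.65 ± 0.04), GRP94 (0.68 ± 0.13) and SDF2 (0.77 ± 0.12). Of all tested loci 1.27% were called higher and 1.34% lower in this comparison. With library totals alone GRP94 had 0.58 and was not called (edgeR adjusted p = 0.101), and with DESeq2 the count was 6. At an unadjusted p under 0.05 in edgeR 8 were higher and 0 lower. CNX was also called without any 1 of the 3 tolerant stress libraries (edgeR adjusted p down to 0.0413). BiP2 was called without tolerant control 1 (edgeR adjusted p = 0.0309). ERO1, the oxidase that recharges PDI, was looked at after its values were seen. It rose by 0.89 ± 0.09 in the sensitive and 0.80 ± 0.09 in the tolerant line, and its interaction of -0.09 ± 0.13 did not pass (edgeR adjusted p = 0.835).

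Of the 4 genes of the unfolded protein signalling pathway, 3 rose and 0 fell in each line in edgeR. Over all tested loci 16.3% and 16.7% rose, and 15.9% and 16.6% fell. Also 0 of the 4 fell at an unadjusted p under 0.05 and with DESeq2. The transcription factor bZIP50, whose transcript is spliced by IRE1, rose by 1.28 ± 0.11 and 1.84 ± 0.11 on the log2 scale. The bZIP factors bZIP60 and bZIP39 rose by 0.96 ± 0.07 and 0.29 ± 0.07 in the sensitive line, and by 1.26 ± 0.07 and 0.57 ± 0.07 in the tolerant line. IRE1 itself, the ER stress sensor, had 0.16 ± 0.10 and 0.20 ± 0.10 and did not pass, but was called with library totals alone (0.57 and 0.51) and, in the tolerant line, without tolerant control 1 (adjusted p = 0.0347 in edgeR). For the interaction 0 of the 4 passed in edgeR, against 2.61% of all tested loci, while 3 had an unadjusted p under 0.05 and 1 passed with DESeq2.

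Transcripts listed here as disulfide-bonded storage proteins mostly fell, while most ER folding partners and most genes of the signalling pathway rose. The PDI genes themselves moved in both directions. Whether each listed storage protein carries disulfide bonds or is a client of the PDI enzymes was not tested. The 14 listed loci fill 13 entries of the table, because neighbouring glutelin genes are merged there, and near-identical copies may share reads. Of the 13, 12 fell in the sensitive and 10 in the tolerant line in edgeR, and 0 rose. Among all tested loci 15.9% and 16.6% fell, and 16.3% and 16.7% rose. Also 0 of the 13 rose at an unadjusted p under 0.05 and with DESeq2. With library totals alone 8 and 9 fell and 1 rose in each line, with medians of -0.57 and -0.81. In the sensitive line GluA3 was lost without sensitive control 3, any of the 3 sensitive stress libraries or tolerant stress 1, and GluA2 without sensitive control 3 or sensitive stress 1 (edgeR adjusted p up to 0.179 and 0.066). In the tolerant line GluA3 was called without sensitive control 3 or tolerant control 1, and GluA2 without tolerant stress 3 (edgeR adjusted p down to 0.00849 and 0.0214). The median log2 fold change was -0.99 and -1.12. The globulin gene Glb1 fell from 8064 ± 70.0 to 1776 ± 79.8 CPM in the sensitive and from 6782 ± 323 to 1609 ± 43.4 CPM in the tolerant line. The glutelin genes GluB1 (a merged entry), GluA1 and GluB4 fell by 1.20, 1.02 and 0.96 on the log2 scale in the sensitive line, and by 1.37, 0.80 and 1.18 in the tolerant line. The listed prolamins differed among themselves. In the sensitive and tolerant line prolamin10 had -0.05 and 0.18 and did not pass (edgeR adjusted p = 0.869 and 0.459). In the same order prolamin16 had -0.25 and -0.46, prolamin13b -1.16 and -1.40, and prolamin13a -2.14 and -2.33, all called. For the interaction 0 of the 13 passed in edgeR, against 2.61% of all tested loci, and 0 with DESeq2. At an unadjusted p under 0.05 there were 5, 1 higher and 4 lower in the tolerant line. GluA1 passed without tolerant control 2 and GluB4 without tolerant control 3 (edgeR adjusted p = 0.00887 and 0.0453). Glb1 and GluA1 are also among the 5 endosperm markers given above, all 5 of which fell in both lines (4 of 5 with library totals alone and with FPKM + 1, where NAC26 had 0.15 in the sensitive line and was called).

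**Figure D4:**
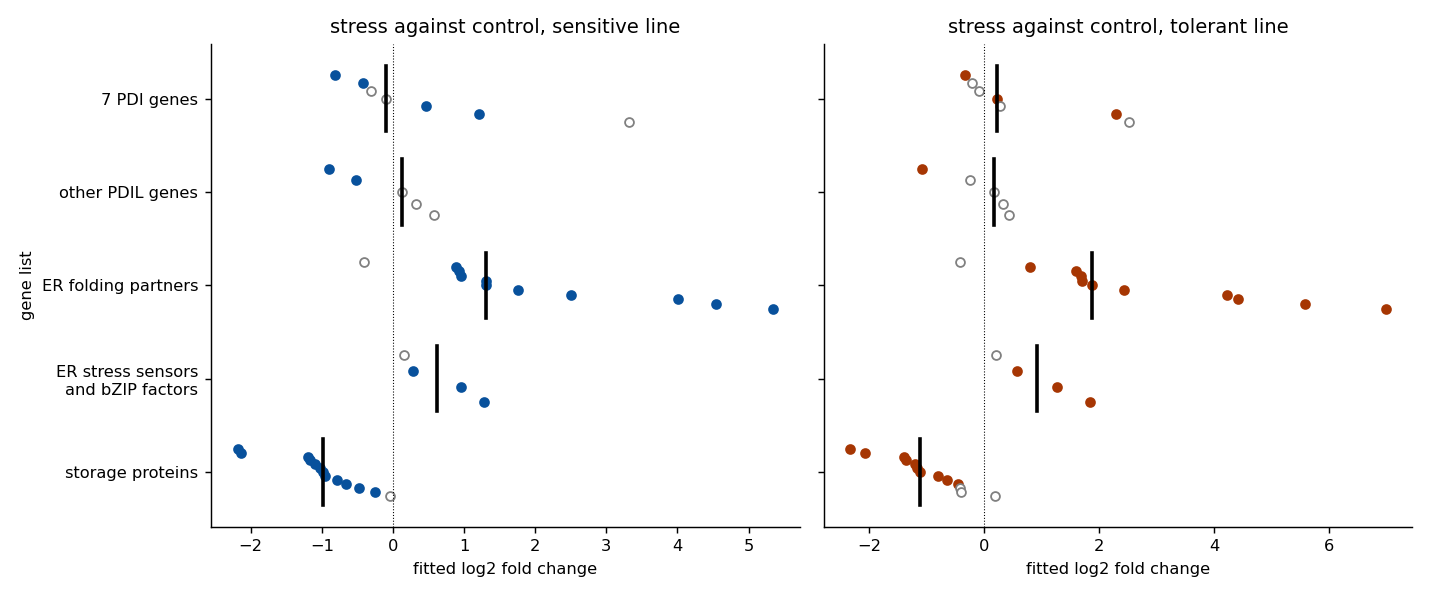
Fitted log2 fold change of stress against control for each gene of 5 lists, in the sensitive line (left) and the tolerant line (right). Filled points have an adjusted p under 0.05, open points do not, and the black line is the list median. ER folding partners lie around medians of 1.31 and 1.87, storage proteins around -0.99 and -1.12, and the 7 PDI genes on both sides of 0.

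The genes closest in pattern to PDIL2-3 were sought among 28384 tested loci, by the root mean square difference between centred group means of log2 CPM over the 4 groups (12 libraries). Nearest were LOC_Os10g38920 (0.0360), LOC_Os11g37950, annotated as barwin (0.0705), and LOC_Os10g27280, annotated as a thaumatin-like protein (0.0723). Their levels were below that of PDIL2-3: LOC_Os11g37950 had 6.75, 13.8, 4.33 and 21.3 CPM in sensitive control, sensitive stress, tolerant control and tolerant stress. For PDIL1-3, the only other gene of the 7 whose group means spanned a log2 range of at least 1, the nearest were LOC_Os01g24420 (0.0859), LOC_Os01g68960 (0.0926) and LOC_Os02g15930 (0.120), with the low counts of PDIL1-3 entering each value.

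PDIL2-3 kept its call and its direction in all 5 comparisons under each of the 21 alternatives tried. Its log2 fold change ranged from 1.16 to 1.63 in the sensitive line and from 2.25 to 2.62 in the tolerant line, and the difference between the lines from 0.96 to 1.14.

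**Figure D5:**
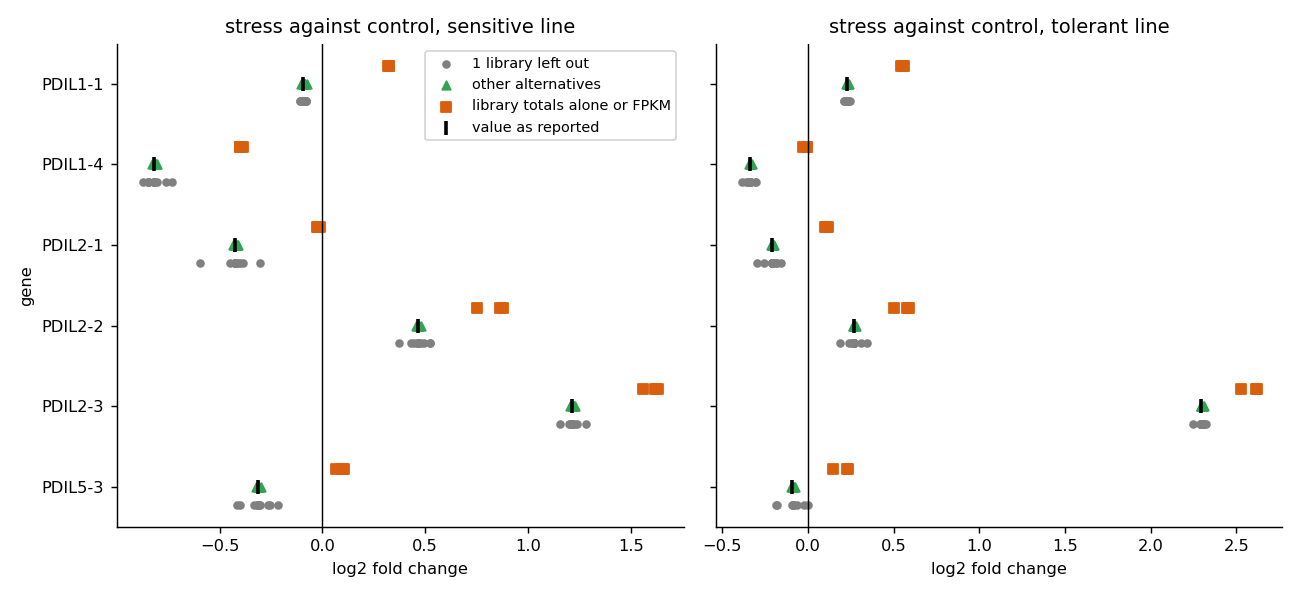
Log2 fold change of stress against control for 6 of the genes under each alternative processing, in the sensitive line (left) and the tolerant line (right). Black ticks are the values as reported, grey points leave out 1 library, orange squares scale by library totals alone or use FPKM, and green triangles are the other alternatives. PDIL2-3 stays between 1.16 and 1.63 in the left and 2.25 and 2.62 in the right panel, while PDIL1-1 in the left panel, PDIL2-1 in the right panel and PDIL5-3 in both cross 0.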

How the data were processed

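Per the labels' protocols, total RNA was depleted of ribosomal RNA, the second cDNA strand was labelled with dUTP, and sequencing was paired-end. The authors deposited whole-number counts and FPKM values per locus, named so in the file headers; the submitters' processing notes list DESeq2, edgeR, StringTie 2.1.6, HISAT2 2.2.1 and cutadapt 1.9, and the mouse build mm10, while the loci carry rice identifiers. The sources used here do not say how counts were made or whether strand was used.

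Counts of all 12 libraries were fitted with edgeR 4.0.16 (R 4.3.3): filterByExpr, TMM, quasi-likelihood fit of 4 group means with 8 residual degrees of freedom, two-sided tests, Benjamini-Hochberg adjustment over 33281 loci at 0.05. Levels between genes use FPKM. The scripts were tested on simulated data. All 12 PDIL names were found in a RefSeq gene table. No replicate pair had identical values, and replicates differed with a chi-square of 13.2 to 173 per degree of freedom. Alternatives used other scalings, DESeq2 1.42.0, limma 3.58.1 on log2 FPKM with pseudocounts of 1 and 0.1, no filter, counts divided by 4, the replicate block, and 1 library left out.

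The 7 genes and the gene lists were chosen with earlier results of these data known. Named genes were all 7, the other PDIL genes, up to 4 per list with the smallest p in either line, and the 3 nearest in pattern to a gene whose group means spanned at least 1 (log2). Outside this rule, some list genes were named for a limit: a call that did not pass or changed with the processing, or low counts. ERO1, the listed prolamins, the further disulfide isomerase loci and tissue markers were named as well. Sequences are not shown.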

Additional observations from a re-analysis of the deposited data

Results flagged for a closer look

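The response to stress differed between the lines, by the interaction test, for 3 of the 7 genes, against 2.61% of all tested loci; the count was 1 with library totals alone. The log2 response was higher in the tolerant than in the sensitive line by 1.08 for PDIL2-3, by 0.32 for PDIL1-1 and by 0.48 for PDIL1-4. In PDIL2-3 the rise was larger, in PDIL1-1 a rise stood beside a small value that did not pass, and in PDIL1-4 the fall was smaller, a call lost in 17 of the 21 alternatives.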

How the results depend on the processing

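Each result was recomputed under 21 alternatives, 12 of them leaving out 1 library. Of the values of single genes, 637 kept direction and call, 68 lost the call, 11 gained it and 19 changed direction. The cause of these changes was not tested. With library totals alone, FPKM + 1 and FPKM + 0.1, in that order, PDIL1-1 in the sensitive line was 0.32, 0.32 and 0.32, PDIL5-3 there 0.10, 0.064 and 0.095, PDIL2-1 in the tolerant line 0.10, 0.10 and 0.12, and PDIL5-3 there 0.23, 0.15 and 0.23. The interaction of PDIL1-3 was 0.048 and 0.082 with FPKM + 1 and + 0.1. Without tolerant control 2, whose group is then at 0 counts, it was 5.62 and the line difference in control -5.21, neither of them a bound; with 1 library left out they ran from -6.02 to 5.62 and from -5.21 to 6.42. The line difference of PDIL2-1 under stress was -0.086, -0.003 and -0.053 without sensitive stress 1, sensitive stress 2 and tolerant stress 1 (-0.086 to 0.21 over all 12). The number of the 7 genes called between lines in control was 1 with library totals alone and with either FPKM setting (3 as reported; 1 to 3 with 1 library left out). Between lines under stress it was 1 with library totals alone, no filter, FPKM + 0.1 and the replicate block (2 as reported; 1 with any library left out), and for the interaction 1 with library totals alone and FPKM + 0.1 (3 as reported; 2 to 3). In the sensitive and tolerant responses it was 3 to 4 with 1 library left out (4 and 3 as reported). Loci called between lines in control numbered 1804, 3116 with DESeq2 and 1098 without tolerant control 1; under stress 1132, 2053 with DESeq2, 696 with library totals alone and 672 to 716 without sensitive stress 1 or 2 or tolerant stress 1 or 3; for the interaction 867, and 1832 with DESeq2. Of the loci called, 50.6% and 50.2% were higher under stress in the sensitive and tolerant line, and 83.6% and 76.8% with library totals alone. Replicate numbers showed no pairing of the libraries over all tested loci (correlation of deviations -0.0123 to 0.0287 over 18 pairs). Loci with low counts enter these correlations, so they do not settle whether libraries were paired. With the replicate block, PDIL1-3 in the sensitive line was called at 4.94 (edgeR adjusted p = 0.0393), and the calls of PDIL1-1 between lines in control (-0.16) and under stress (0.16) and of the PDIL1-4 interaction (0.48) were lost. Summing the entries of a locus gave no separate value, since each gene fills 1 entry. The low counts of PDIL1-3 limit what can be seen of it.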
